A study of Rattus norvegicus with 4 samples.

Results

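The miRNAs encoded inside the Hox gene clusters were examined in small RNA sequencing of rat growth plate chondrocytes and of the matrix vesicles (MVs) these cells deposit in their matrix. All mature products numbered miR-10, miR-196 or miR-615, with any letter or arm, were taken, and counts carrying the same name were added. This gave 11 products of 6 genes among the 740 miRNA names in the deposited counts. Reads were found for 10 of the 11 products in at least 1 library, for 7 in all 4 libraries, and at least 10 reads in all 4 libraries for 3 products, rno-miR-10a-5p, rno-miR-10b-5p and rno-miR-615, written below without the prefix for rat.

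There were 4 libraries, 1 per group. RC-cells were chondrocytes from the resting zone of the costochondral (rib) cartilage of male Sprague Dawley rats, and GC-cells were chondrocytes from the growth zone, that is the prehypertrophic and upper hypertrophic cartilage, of the same kind of animal. RC-MVs and GC-MVs were the membrane vesicles released by trypsin from the matrix of such cultures and pelleted by ultracentrifugation. All cultures were confluent, at passage 4, in medium with ascorbic acid and fetal bovine serum that, by the methods, had been ultracentrifuged to deplete its exosomes, and no group received a treatment or carried a genetic change. How many rats or flasks went into a library is not given in the sources used here.

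The RC-cell library held 6517329 miRNA reads, the RC-MV library 1108821, the GC-cell library 7414467 and the GC-MV library 982543. Levels are given as percent of all miRNA reads of a library, and differences as ratios of these percents. Where both libraries held at least 1 read of a miRNA, its ratio was called if it reached 2-fold, up or down. Each group was a single library, so no difference could be checked on replicates or tested. The 95% intervals (Wilson for shares, exact Clopper-Pearson for ratios) cover counting error only, and PCR copies of a molecule are counted as separate reads.

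The Hox genes are transcription factors that lie in 4 clusters and pattern the body axis and the skeleton, and a few miRNA genes sit between or within them. The miR-10 genes, of which miR-10b is also known as a repressor of Hoxd10, lie near the Hox4 group, the miR-196 genes near the Hox9 and Hox10 groups, and miR-615 in the HoxC cluster. These miRNAs are known to be expressed in domains that resemble those of their neighbouring Hox genes, and miR-196 is known to repress Hox mRNAs, Hoxb8 among them. A miRNA finds its targets mainly through its seed, bases 2 to 8 from the 5′ end, and of the duplex cut from a hairpin usually 1 strand, the guide, is kept while the other is degraded.

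In the RefSeq annotation of the rat assembly GRCr8, which was used for gene order and sequence and not for positions in the authors' build Rnor_6.0, Mir10a lay on chromosome 10 between Hoxb5 and Hoxb4, and Mir196c on the same chromosome between Hoxb13 and Hoxb9. Mir10b lay on chromosome 3 within the span of Hoxd4. Mir196a lay on chromosome 7 between Hoxc10 and Hoxc9, and Mir615 lay on chromosome 7 within the overlapping spans of Hoxc6 and Hoxc5. Mir196b lay on the minus strand of chromosome 4 between Hoxa10 and Hoxa9, whereas the other 5 genes were on the plus strand. The products therefore came from all 4 Hox clusters.

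Mature sequences from RefSeq (GRCr8) matched 10 of the 11 products. They are shown because the miR-196 guides differ from each other by single bases outside 1 shared seed, and because miR-10a and miR-10b are near-identical over most of their length, which bears on how reads could be assigned. Capitals mark the seed, and each sequence runs 5′ to 3′.
miR-10a-5p: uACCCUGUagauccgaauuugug
miR-10b-5p: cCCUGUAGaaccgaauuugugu
Mir10b hairpin, from the base aligned with the start of miR-10a-5p: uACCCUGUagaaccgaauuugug
miR-196a-5p: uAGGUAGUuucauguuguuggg
miR-196b (listed by RefSeq as miR-196b-5p): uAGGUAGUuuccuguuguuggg
miR-196c-5p: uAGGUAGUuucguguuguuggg
miR-615: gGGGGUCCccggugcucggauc
miR-10a-3p: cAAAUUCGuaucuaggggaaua
miR-100-5p: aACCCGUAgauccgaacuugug

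The annotated miR-10b-5p starts 2 bases further in than miR-10a-5p, so that by annotation their seeds differ. The 2 bases ahead of it in the Mir10b hairpin are UA, and read from there the hairpin holds the seed of miR-10a-5p and differs from miR-10a-5p at 1 of 23 bases, U12A, counted from the 5′ end of miR-10a-5p. The deposited counts do not show which start the reads had. The 3 miR-196 guides share 1 seed, which no other mature sequence in the RefSeq table had, and differ at 1 position each from miR-196a-5p, A12C in miR-196b and A12G in miR-196c-5p. The first 6 bases of that seed, AGGUAG, are bases 3 to 8 of all 8 let-7 guide sequences in the table. The seeds of miR-615 and miR-10a-5p were found in no other annotated mature sequence. The relative miR-100-5p shares a stretch of 11 bases, GUAGAUCCGAA, with miR-10a-5p but has another seed, ACCCGUA. Since paralogues differ at 1 base, the split of reads among miR-10a and miR-10b and among the miR-196 guides is uncertain.

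The miRNAs of cartilage were checked first. The cartilage list of miR-140, miR-455 and miR-675 held 0.526% of the reads in RC-cells against 0.636% in GC-cells, and 1.0% and 0.841% in their vesicles, with both arms of miR-140 and miR-455 present in each library and miR-675-5p at 0 in all 4. Most of these reads were miR-140-3p, which was higher in vesicles of both zones, as was miR-455-3p, whereas miR-140-5p and miR-455-5p were lower in both. Between the cells, both arms of miR-140 were higher in GC-cells than in RC-cells. Both arms of miR-455 were lower there, 0.0439% against 0.0627% for miR-455-5p and 0.00577% against 0.0097% for miR-455-3p. The blood and endothelium list, of which 7 of 8 names were in the counts, held 0.026% in RC-cells and 0.0223% in GC-cells, against 0.104% and 0.252% in their vesicles, and its miR-223-3p was at 0 in GC-cells. The liver list of 3 miRNAs, led in MVs by miR-122-5p, held 0.0284% and 0.0393% in the cells of the resting and growth zone, against 0.418% and 1.18% in their vesicles, with reads for all 3 in every library. Both sums were higher in MVs than in cells and highest in GC-MVs, but not every list member was. In RC-MVs 6 of the 7 blood and endothelium miRNAs were above RC-cells, while miR-126a-3p fell from 0.0248% to 0.0151%, and in GC-MVs all 7 were above GC-cells. Of the liver list, miR-122-5p was higher in vesicles of both zones, from 0.000491% to 0.401% and from 0.000459% to 1.14%, miR-194-5p was lower in both, and miR-192-5p was lower in RC-MVs (0.0162% against 0.0238%) and close to the cells in GC-MVs (0.0347% against 0.0338%). The part of these lists in the results on the Hox-cluster miRNAs was not tested. The lists for skeletal muscle and for neural tissue, 4 miRNAs each, lay between 0.000368% and 0.00733% and between 0.000541% and 0.00201%, with the defining neural miR-124-3p at 0 in all libraries.

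Together, the Hox-cluster miRNAs took 0.1137% of all reads in RC-cells, 0.1006% in their vesicles, 0.7066% in GC-cells and 0.4723% in GC-MVs. Both growth zone libraries were above both resting zone libraries. Most of these reads came from miR-10a-5p, the guide strand of the HoxB gene Mir10a, and from its HoxD paralogue miR-10b-5p, which together made up 98.1% of the member reads in RC-cells, 99.3% in GC-cells and 98.1% in GC-MVs. In RC-MVs they made up 83.9%, and miR-615 made up 15.6%. In bulk libraries such as these, fewer cells that express a miRNA and less of it per cell cannot be told apart.

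**Figure D1:**
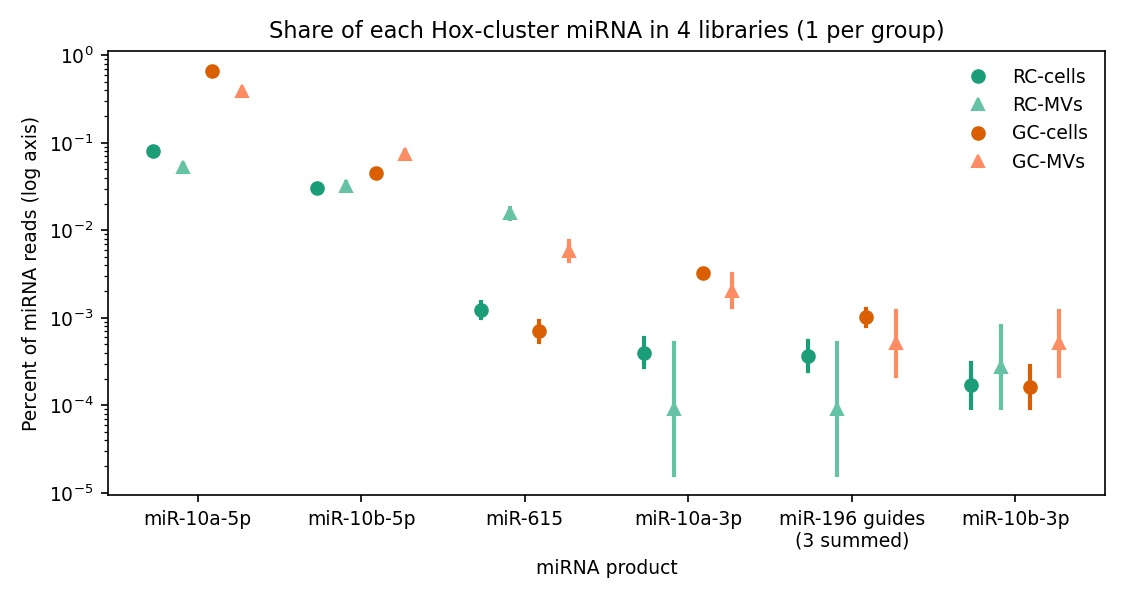
Percent of miRNA reads (y-axis, log scale) for 5 Hox-cluster products and for the 3 miR-196 guides summed (x-axis), in 1 library each of RC-cells and GC-cells (circles) and RC-MVs and GC-MVs (triangles). Lines are 95% Wilson intervals for counting error. miR-10a-5p ran from 0.0522% in RC-MVs to 0.657% in GC-cells, miR-615 was higher in both MV libraries than in both cell libraries, and the miR-196 guides stayed at or below 0.00101%.

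miR-10a-5p had 5273 reads in RC-cells against 48677 in GC-cells, which were 0.0809% (95% interval from 0.0787% to 0.0831%) and 0.657% (0.651% to 0.662%) of all miRNA reads there. In the vesicles it had 579 reads in RC-MVs against 3812 in GC-MVs, which were 0.0522% (0.0481% to 0.0567%) and 0.388% (0.376% to 0.401%). Its order was GC-cells, GC-MVs, RC-cells and RC-MVs, and no neighbouring intervals in this order overlapped. It ranked 18th among the miRNAs of GC-cells and 26th in GC-MVs, but 77th in RC-cells and 85th in RC-MVs.

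The first comparison asked how the zones differed in the cells. The share of miR-10a-5p was 8.11-fold higher in GC-cells than in RC-cells (95% interval from 7.89 to 8.35). Its ratio ranked 2nd of the 474 miRNAs with reads in both cell libraries. Above it was miR-139-5p, with 9 reads in RC-cells against 162 in GC-cells and a log2 ratio of 3.98. Among the 379 miRNAs for which each cell library held 10 reads or more, the ratio of miR-10a-5p was the highest. The next highest was that of miR-10a-3p, the strand from the opposite arm of the same hairpin, which had 26 reads in RC-cells against 238 in GC-cells, a ratio of 8.05 (5.36 to 12.6). Both arms thus had ratios whose intervals overlapped, although the guide was far more abundant. The ratio of miR-10a-5p to miR-10a-3p reads was 202.8 in RC-cells (138.3 to 310.8), 204.5 in GC-cells (180.1 to 233.3) and 190.6 in GC-MVs (123.2 to 312.4). In RC-MVs miR-10a-3p had 1 read, and the ratio was 579 with an interval from 103.5 to 22910.

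miR-10b-5p had 1991 reads in RC-cells against 3332 in GC-cells, shares of 0.0305% (0.0292% to 0.0319%) and 0.0449% (0.0434% to 0.0465%). In the vesicles it had 357 reads in the resting zone against 741 in the growth zone, shares of 0.0322% (0.0290% to 0.0357%) and 0.0754% (0.0702% to 0.0810%). RC-cells and RC-MVs did not differ beyond their intervals, GC-cells were above both, and GC-MVs were highest. In the cells the share was 1.47-fold higher in GC-cells than in RC-cells (1.39 to 1.56), short of the 2-fold threshold. Its opposite arm miR-10b-3p had 11 reads in RC-cells against 12 in GC-cells, and 3 and 5 in their vesicles, too few to show a difference at this depth.

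The miR-196 guides were rare in these libraries. miR-196a-5p had 10 reads in RC-cells, 29 in GC-cells, 3 in GC-MVs and 0 in RC-MVs. miR-196b had 9, 23, 1 and 0 reads in the same order, and miR-196c-5p had 5, 23, 1 and 1. Each of the 3 guides had more reads in GC-cells than in RC-cells. The ratio was 2.55 for miR-196a-5p (1.21 to 5.86), 2.25 for miR-196b (1.00 to 5.52) and 4.04 for miR-196c-5p (1.50 to 13.6), and these intervals overlapped. Summed over the 3 guides, which removes the split of reads among paralogues, the share was 0.000368% in RC-cells and 0.00101% in GC-cells, 2.75-fold higher in GC-cells (1.71 to 4.55). The other arms were at the limit of detection. miR-196a-3p had 1 read in each cell library, miR-196c-3p had 1 or 2 reads in every library, and the starred miR-196b had none in any library, which allows up to 4.05e-05% in GC-cells and 0.000305% in GC-MVs, the share of 3 reads.

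miR-615, annotated in rat as a single product from the HoxC cluster, had a smaller share in the growth zone. It had 80 reads in RC-cells against 52 in GC-cells, shares of 0.00123% (0.000986% to 0.00153%) and 0.000701% (0.000535% to 0.000920%). Its share was 1.75-fold lower in GC-cells (1.22 to 2.53), which did not reach 2-fold. Under the other 3 scalings its ratio was 0.712 to 0.732 and the interval included 1, with an upper end of 1.02 to 1.05.

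In all, 10 members had reads in both cell libraries. Of these, 5 reached 2-fold upward in GC-cells, where 5.7% of all 474 miRNAs tested were called in that direction, and 0 reached it downward, where 13.7% of all were called. The 5 were both arms of miR-10a and the 3 miR-196 guides. Under each of the other 3 scalings, 6 members were higher, miR-196c-3p with 2 reads and 1 read being added, where 10.8% to 11.2% of all were higher, and 0 were lower, where 6.75% to 7.38% of all were. The median log2 ratio was 0.99 over the 10 members and -0.24 over all miRNAs tested. Only the miR-10a arms had an interval wholly beyond 2-fold, 2 of 10 members against 1.27% of all miRNAs, and 0 members had it on the lower side, against 3.8%. With 10 reads required in both libraries, 3 of 6 members were higher (2.64% of all 379) and 0 lower (10.6%). At 4-fold, both miR-10a arms and miR-196c-5p were higher, 3 of 10 against 1.48% of all, and 0 were lower, against 2.74%. The miR-10a arms share a hairpin, and the 3 miR-196 guides differ by single bases, so that the split of reads among them is uncertain. These 5 are therefore not 5 independent observations.

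The same zone comparison was made in the vesicles. The share of miR-10a-5p was 7.43-fold higher in GC-MVs than in RC-MVs (6.81 to 8.12). This was again the highest ratio where both libraries held 10 reads or more, here among 271 miRNAs. It ranked 4th of the 397 miRNAs with at least 1 read in both. miR-10b-5p was 2.34-fold higher in GC-MVs (2.06 to 2.67), with an interval wholly beyond 2-fold. When 3 abundant miRNAs were left out of the totals, the ratio of miR-10b-5p was 3.63 (3.19 to 4.13). miR-10a-3p had 20 reads in GC-MVs against 1 in RC-MVs, 22.6-fold higher with an interval that spanned 3.61 to 935.5. For miR-615 the direction was opposite, with 174 reads in RC-MVs against 57 in GC-MVs, and its ratio was 0.370 (0.269 to 0.501). This call was lost, with a ratio of 0.572, when 3 abundant miRNAs were left out of the totals. The miR-196 guides summed to 1 read in RC-MVs against 5 in GC-MVs, a ratio of 5.64 (0.631 to 266.9), so that no difference was detectable at this depth.

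Of the 7 members with reads in both MV libraries, 3 reached 2-fold upward in GC-MVs, against 14.6% of all 397 miRNAs tested, and 1 downward, against 24.7%. The 3 were miR-10a-5p, miR-10a-3p and miR-10b-5p, and the 1 was miR-615. With TMM normalization, size factors and totals without the 3 abundant miRNAs, 4 members were higher, miR-10b-3p with 5 and 3 reads being added, where 17.9%, 20.7% and 31.0% of all were higher and 18.6%, 17.9% and 10.1% lower, and miR-615 was called lower under the first 2 of these. On percents, the same 3 had an interval wholly beyond 2-fold, against 4.79% of all miRNAs, and 0 members had one on the lower side, against 10.6%. With 10 reads required in both libraries, 2 of 3 members were higher (12.2% of all 271) and 1 lower (23.6%). At 4-fold, 2 of 7 were higher, against 3.27% of all, and 0 were lower, against 4.79%. miR-10a-5p, miR-10b-5p and miR-615 each lay on the same side of 1 in cells and in vesicles.

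**Figure D2:**
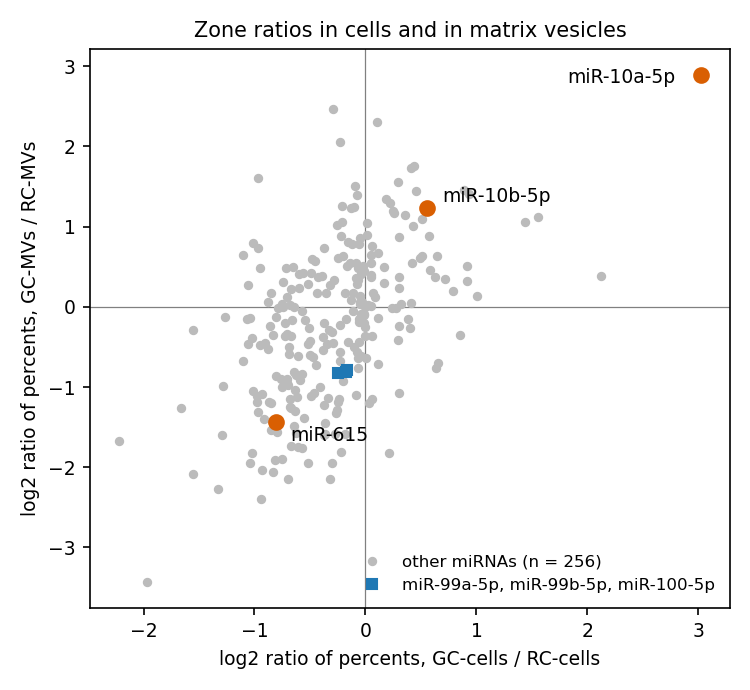
Log2 ratio of percents between the zones in cells (x-axis, GC-cells over RC-cells) and in vesicles (y-axis, GC-MVs over RC-MVs) for miRNAs that had 10 reads or more in each of the 4 libraries, 1 library per group. Orange points are Hox-cluster miRNAs, blue squares 3 relatives of miR-10, and grey points the other miRNAs. miR-10a-5p lies at 3.02 and 2.89, in the upper right corner apart from the grey points, while miR-615 lies at -0.81 and -1.44.

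The next comparisons set vesicles against the cells that produced them. miR-10a-5p was lower in vesicles of both zones, 1.55-fold in RC-MVs against RC-cells (1.42 to 1.69) and 1.69-fold in GC-MVs against GC-cells (1.64 to 1.75), in neither case by 2-fold. miR-10b-5p had a ratio of 1.05 in the resting zone (0.939 to 1.18) and was 1.68-fold higher in the vesicles of the growth zone (1.55 to 1.82). For the resting zone the direction of miR-10b-5p depended on the scaling, as the ratio was 0.99 with TMM normalization and 0.911 when 3 abundant miRNAs (miR-21-5p, miR-143-3p and miR-22-3p) were left out of the totals.

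miR-615 was higher in vesicles of both zones. Its 174 reads in RC-MVs were 0.0157% of the miRNA reads (0.0135% to 0.0182%), and its 57 reads in GC-MVs were 0.00580% (0.00448% to 0.00752%), although the MV libraries were the shallower ones. The ratio to the cells was 12.8 in the resting zone (9.76 to 16.9), and it was 8.27 in the growth zone (5.58 to 12.3). With 10 reads required in both libraries, it ranked 5th of 293 miRNAs in RC-MVs and 10th of 275 in the growth zone vesicles. With 1 read required, it ranked 21st of 414 and 29th of 417. In rank of abundance it moved from 277th in RC-cells to 129th in RC-MVs, and from 301st in GC-cells to 172nd in GC-MVs. The sums of the blood and liver lists, led by miR-451-5p and miR-122-5p, were higher in the same MV libraries, although miR-194-5p was lower in both and miR-192-5p and miR-126a-3p in RC-MVs, and the part of these lists in the ratio of miR-615 was not tested.

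The miR-196 guides were fewer in the vesicles in number of reads, with ratios of 0.245 in the resting zone (0.00596 to 1.50) compared with 0.503 in the growth zone (0.159 to 1.23). Both intervals included 1, so that no difference was detectable. miR-10b-3p had ratios of 1.60 (0.287 to 6.07) and 3.14 (0.868 to 9.59). miR-10a-3p had ratios of 0.226 (0.00551 to 1.38) and 0.634 (0.380 to 1.00).

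In RC-MVs against RC-cells 7 members had reads in both libraries, of which miR-615 and, with 1 read in each library, miR-196c-3p reached 2-fold upward and miR-10a-3p downward. These were 2 and 1 of 7, where 33.6% and 30.4% of all 414 miRNAs tested were called. In GC-MVs against GC-cells 9 members had reads in both, of which 3 were higher (miR-615, miR-10b-3p and miR-196c-3p) and 2 lower (miR-196b and miR-196c-5p), where 32.1% and 25.2% of all 417 were called. These counts are near the background. With an interval wholly beyond 2-fold, 1 member was left in each zone, miR-615, where 23.4% of all miRNAs were on the higher side in RC-MVs and 17.0% in those of the growth zone, and 0 were lower, against 19.8% and 15.1%. With 10 reads required, miR-615 was the 1 member higher, of 3 in the resting zone (34.5% of all) and of 4 in the growth zone (30.2%), and 0 were lower (28.3% and 22.2% of all). At 4-fold, 2 members were higher and 1 lower in the resting zone, against 17.4% and 17.1% of all, and 1 was higher and 0 lower in the growth zone, against 14.6% and 9.59%.

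**Figure D3:**
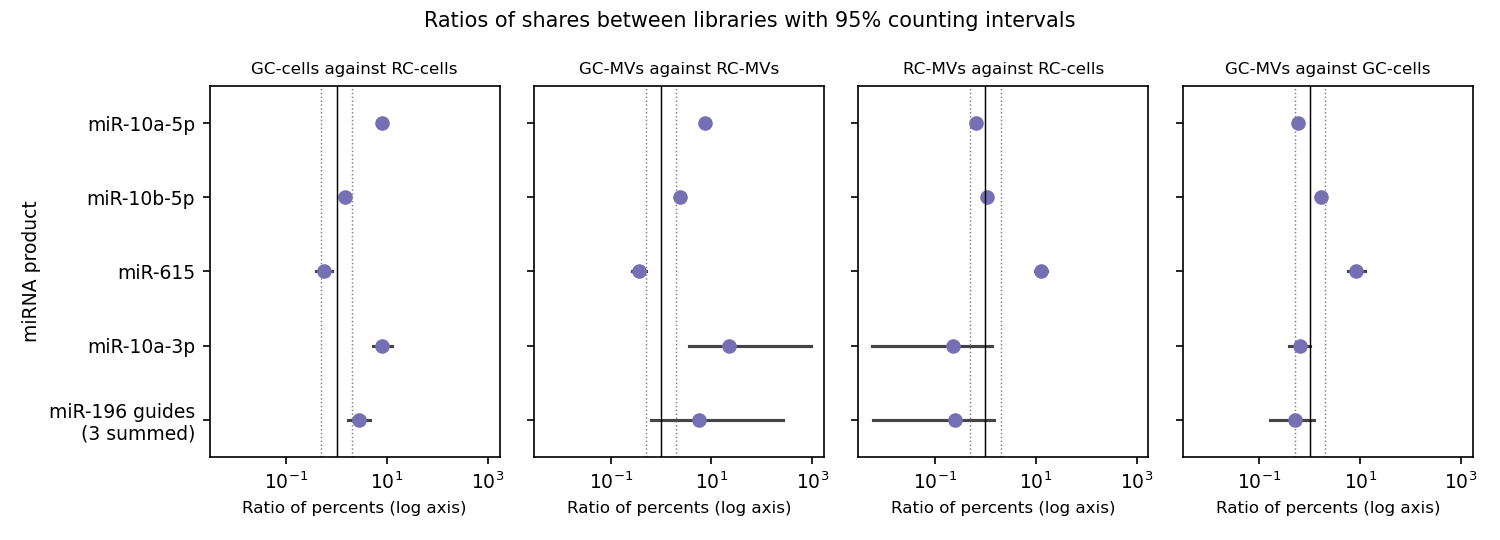
Ratio of percents (x-axis, log scale) for 4 Hox-cluster products and the 3 miR-196 guides summed (y-axis) in the 4 comparisons, 1 library per group. Points are ratios, horizontal lines exact 95% intervals for counting error, and dotted lines mark 2-fold in either direction. miR-10a-5p lies right of the 2-fold line in both zone comparisons, and miR-615 lies right of it in both comparisons of vesicles with cells.

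Whether a member had a like ratio of vesicles to cells in both zones was read from the ratio of the 2 ratios, growth zone over resting zone. It was 0.916 for miR-10a-5p (95% normal interval on the log scale from 0.835 to 1.00) and 0.647 for miR-615 (0.409 to 1.02). Both intervals reached 1, but for miR-10a-5p the interval lay below 1 with TMM normalization (0.835, 0.761 to 0.915) and size factors (0.849, 0.775 to 0.931) and above 1 without the 3 abundant miRNAs (1.14, 1.04 to 1.25), so that its direction depended on the scaling. For miR-615 the interval ended below 1 with TMM normalization (0.590, 0.372 to 0.934) and with size factors (0.600, 0.379 to 0.951), but not without the 3 abundant miRNAs (0.804, 0.507 to 1.27). For miR-10b-5p it was 1.59 (1.39 to 1.83), so that the vesicle share of miR-10b-5p relative to the cells was higher in the growth zone beyond counting error.

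A ratio of paralogues within a library does not depend on how libraries are scaled. There were 2.65 reads of miR-10a-5p for each read of miR-10b-5p in RC-cells (2.51 to 2.79) and 14.6 in GC-cells (14.1 to 15.1). In the vesicles there were 1.62 in the resting zone (1.42 to 1.86) against 5.14 in the growth zone (4.75 to 5.57). miR-10a-5p was the more frequent paralogue in all 4 libraries, and none of the intervals overlapped. Between the zones the ratio was 5.52-fold higher in GC-cells than in RC-cells (5.18 to 5.87, normal interval on the log scale) and 3.17-fold higher in GC-MVs than in RC-MVs (2.72 to 3.70). Between vesicles and cells it was 1.63-fold lower in RC-MVs (1.42 to 1.88) and 2.84-fold lower in GC-MVs (2.61 to 3.10). In GC-cells the miR-10b-5p reads came to 6.85% of the miR-10a-5p reads, so that reads of Mir10a counted at Mir10b there cannot have numbered more than these.

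**Figure D4:**
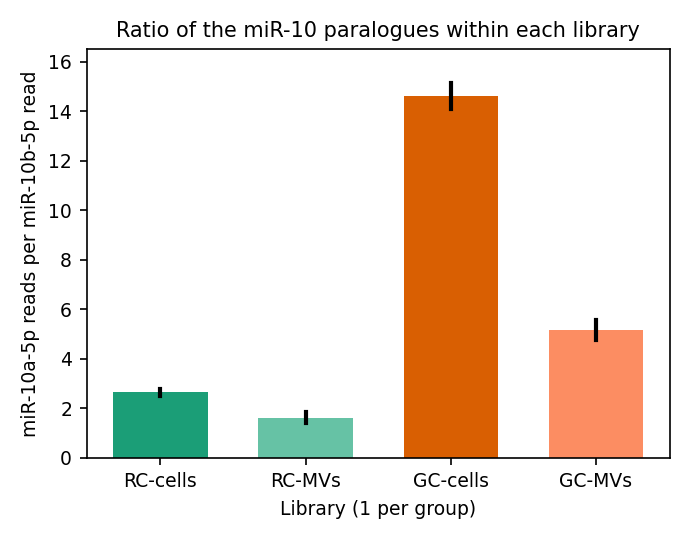
Reads of miR-10a-5p for each read of miR-10b-5p (y-axis, from 0) in the 4 libraries, 1 per group. Black lines are exact 95% intervals for counting error. The ratio was higher in the cells than in the vesicles of the same zone, 2.65 against 1.62 in the resting zone and 14.6 against 5.14 in the growth zone.

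The relatives of miR-10 outside the Hox clusters were compared from a list of 7 guides, miR-99a-5p, miR-99b-5p and miR-100-5p with the members of their clusters miR-125a-5p, miR-125b-5p, let-7c-5p and let-7e-5p. miR-100-5p, the most abundant of the 3 close relatives, had 59395 reads in RC-cells against 60199 in GC-cells, and 16511 and 8495 in their vesicles. Its ratio of GC-cells to RC-cells was 0.891 (0.881 to 0.901), while those of miR-99a-5p and miR-99b-5p were 0.884 and 0.840. For these 3 the direction turned under other scalings, where the ratios lay between 1.05 and 1.14. Of the 7 guides, 0 differed by 2-fold between the cells, where 5.7% of all miRNAs were higher and 13.7% lower, 0 reached 2-fold upward in GC-MVs against RC-MVs, where 14.6% of all did, and 3 did so downward, miR-125a-5p, miR-125b-5p and let-7c-5p, where 24.7% of all miRNAs did. With TMM normalization miR-125a-5p (0.547) and let-7c-5p (0.533) were no longer called, and without the 3 abundant miRNAs in the totals none of the 3 was, with ratios of 0.737, 0.511 and 0.717 in the order above. The median log2 ratio of the 7 was -0.37 in the cells and -0.83 in the vesicles. Over the members tested it was 0.99 and 0.91, and over all miRNAs tested -0.24 and -0.15. The log2 ratios of miR-10a-5p alone were 3.02 and 2.89.

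The miRNAs with the most similar pattern were sought among the 262 that had 10 reads or more in every library, by the Euclidean distance between log2 percents centred on their own mean over the 4 libraries. For miR-615 the nearest was miR-134-5p at a distance of 0.0864, followed by miR-770-3p at 0.325 and miR-92a-1-5p at 0.669, where the median over all others was 3.43. miR-134-5p had 18795 reads in RC-cells against 11924 in GC-cells, and 38061 and 12518 in their vesicles, so that it was far more abundant but in nearly the same proportions. For miR-10b-5p the nearest were miR-143-3p at 0.288, miR-29b-3p at 0.301 and miR-132-3p at 0.368, against a median of 1.92. miR-10a-5p had no close neighbour. Its nearest were miR-212-5p at 1.88, miR-143-3p at 2.10 and miR-30b-5p at 2.16, against a median of 3.63.

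The base composition of the mature sequences moved with the ratio of vesicles to cells. miR-615 consists of G and C to 77.3%, and only 1 of the 483 miRNAs with reads and a sequence had a higher value, where the median was 47.8%. In miR-10a-5p and miR-10b-5p the figures were 43.5% and 45.5%. G and C content and the log2 ratio of vesicles to cells had a Spearman rho of 0.56 over 265 miRNAs in the resting zone and of 0.51 over 251 in the growth zone. These were the miRNAs that had 10 reads or more in both libraries and a RefSeq sequence, and the values describe single pairs of libraries of unequal depth. Among the 40 miRNAs with at least 60% G and C, the median log2 ratio in the resting zone was 1.35, with 27 past 2-fold upward and 0 downward, and miR-615 with 3.68 was the highest of them. Among the 37 miRNAs with under 40%, the median was -2.35. In the growth zone the medians were 1.53 and -1.34, and 2 of the 38 miRNAs with at least 60% were above miR-615 with 3.05. Of these 38, 26 were past 2-fold upward and 2 downward. The part of base composition in the ratio of miR-615 was not tested.

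**Figure D5:**
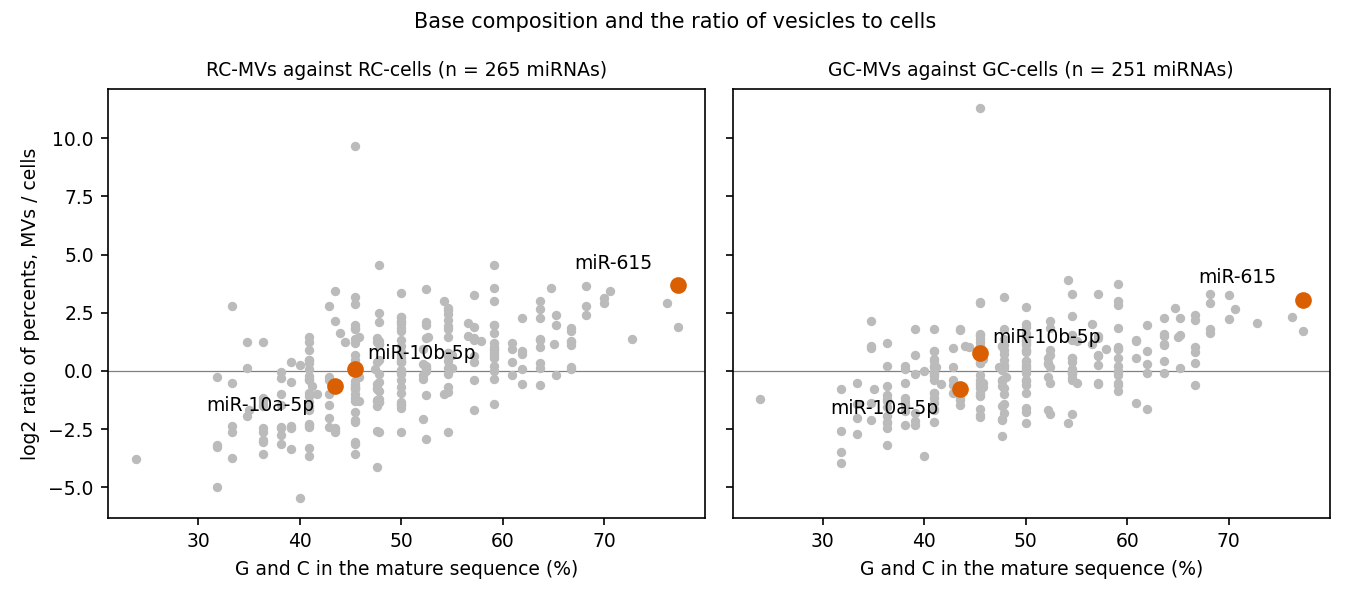
G and C content of the mature sequence (x-axis, %) and log2 ratio of percents of MVs to cells (y-axis) for miRNAs that had 10 reads or more in both libraries and a RefSeq sequence, in the resting zone (left) and the growth zone (right), 1 library per group. Grey points are single miRNAs and orange points Hox-cluster miRNAs. miR-615 lies at the right edge at 77.3% with log2 ratios of 3.68 and 3.05, while miR-10a-5p and miR-10b-5p lie near the middle of the axis.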

How the data were processed

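Small RNA of 4 libraries was sequenced. Alignment by the authors was with Bowtie2 (genome Rnor_6.0) and tabulation with miARma-Seq, and the deposited values are raw read counts, 1 for each annotated miRNA locus. Tool versions and the treatment of reads matching several loci are not given in the sources used here. Counts of 774 loci were added by name to 740 names. As in the study's methods, counts were turned into percents of a library's miRNA total. These totals ran from 982543 to 7414467, and 3 reads were 4.05e-05% to 0.000305% of them. Ratios were called at 2-fold. The members, lists and rules were chosen with earlier results of these data known. Members, the 7 relatives and, for each member that had 10 reads in every library, the 3 nearest profiles were named. RefSeq tables of GRCr8 gave sequences and gene order. The alternatives were TMM normalization, size factors, leaving miR-143-3p, miR-22-3p and miR-21-5p out of the totals, a pseudocount of 0.5, at least 10 reads, an interval beyond 2-fold and a 4-fold threshold. Moving 1% of the miR-10a-5p reads was added after the data were seen. The intervals were tested on simulated counts that held counting error only, so that any other spread was not covered. Python 3.11.15, numpy 2.4.6, pandas 2.3.3, scipy 1.17.1, matplotlib 3.10.9, R 4.3.3, edgeR 4.0.16 and DESeq2 1.42.0 were used, the last 2 for scaling only.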

Additional observations from a re-analysis of the deposited data

Results flagged for a closer look

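miR-196c-5p had a ratio of 1.18 in RC-MVs against RC-cells and of 0.328 in GC-MVs against GC-cells, on opposite sides of 1. The MV libraries held 1 read each, and the intervals ran from 0.0249 to 10.5 and from 0.00797 to 2.02. The growth zone ratio divided by that of the resting zone was 0.279 (0.0148 to 5.26), an interval that included 1. With 1 library per group, the difference could not be tested. miR-10b-3p had a ratio of 0.959 in GC-cells against RC-cells and of 1.88 in GC-MVs against RC-MVs. It rested on 12 and 11 reads in the cells and on 5 and 3 reads in the vesicles, the intervals from 0.387 to 2.40 and from 0.366 to 12.1 overlapped, and the difference was not tested. In the cells its direction also depended on the scaling, with a ratio of 1.21 under TMM normalization.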

How the results depend on the processing

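No paired analysis was possible because each group had 1 library and the ratios came from no test. The other scalings multiplied all ratios of a comparison by between 0.856 with TMM normalization (GC-MVs against GC-cells) and 1.55 with totals without the 3 abundant miRNAs (GC-MVs against RC-MVs). Under the 4 scalings the ratio of miR-10a-5p lay between 8.11 and 10.4 in GC-cells against RC-cells and between 7.43 and 11.5 in GC-MVs against RC-MVs, and that of miR-615 between 7.08 and 8.88 in GC-MVs against GC-cells. Without the 3 abundant miRNAs in the total, the ratio of miR-615 in GC-MVs against RC-MVs was 0.572, so that 0 members were called lower there, as with the interval beyond 2-fold and with 4-fold. Of 37 ratios, 33 of single members and 4 of the summed miR-196 guides, 31 stayed inside their counting interval with TMM normalization and with size factors, 29 without the 3 abundant miRNAs and all 37 with the pseudocount.

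In RC-MVs against RC-cells, at least 10 reads or an interval beyond 2-fold left 1 member higher and 0 lower. In GC-MVs against GC-cells, these settings and 4-fold also left 1 higher and 0 lower. In GC-cells against RC-cells, 3 were higher with at least 10 reads, 2 with the interval and 3 with 4-fold. The vesicle to cell ratio of the growth zone over the resting zone was 0.835 with TMM normalization and 1.14 without the 3 abundant miRNAs for miR-10a-5p, on both sides of 1, and 1.98 without them for miR-10b-5p. An alternative chosen after seeing the data took 1% of the miR-10a-5p reads as counted at Mir10b and moved them back, which gave 17.3 in place of 14.6 reads of miR-10a-5p for each miR-10b-5p read in GC-cells. It left 35 of the 37 ratios inside their interval, and moved those of miR-10b-5p to 1.29 in GC-cells against RC-cells and to 1.86 in GC-MVs against GC-cells. Depth limits the miR-196 guides, with 1 and 5 reads in the MV libraries, and the miR-196 products from the other arms, with at most 2 reads in any library.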
